A study of Mus musculus with 9 samples.

Results

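The genes described here encode sodium, calcium, HCN and TRP channels, the proteins that carry inward current into neurons. They were chosen by gene symbol: voltage-gated sodium channel alpha and beta subunits (Scn genes ending in a or b), the sodium leak channel Nalcn, the alpha1, alpha2delta, beta and gamma subunits of voltage-gated calcium channels (Cacna, Cacnb and Cacng), the HCN genes, and the TRPC, TRPM and TRPV families. The rule found 66 of the 55401 genes in the deposited table, and 63 of the 66 had at least 1 count in some library. A filter on low counts left 47 of the 66 for testing among 15893 genes. The measurements are Smart-seq2 libraries, a full-length cDNA method for little RNA, made from spinal cord motoneurons of wild-type (WT) mice. No age is given for them. The neurons carried a fluorescent label named TRDA, and were drawn by glass electrodes out of fresh slices 4 weeks after injury. There are 3 libraries in each of 3 groups: sham mice labelled with no treatment, untrained mice with a spinal cord injury, and SBES mice with the injury followed by synergistic bidirectional electrical stimulation. SBES libraries 1, 2 and 3 had stimulation at 10, 15 and 20 Hz, so within that group frequency and library cannot be told apart. Which mouse a library came from and how many neurons it holds are not in the labels, so the spread that p-values rest on may be technical in part.

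Sodium channels open on depolarization to start the action potential, and calcium channels turn it into calcium entry and transmitter release. A small part of both currents does not inactivate, and in motoneurons this persistent inward current, attributed to the sodium alpha subunit Scn8a and the L-type calcium subunit Cacna1d, amplifies synaptic input and sustains firing. HCN channels open on hyperpolarization and set resting excitability and rhythm, and TRP channels are cation channels gated by lipids, calcium, temperature, osmotic or mechanical stimuli in neurons, glia and vessels.

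Library totals ran from 11821145 to 17675948 counts, of which the 66 channel genes took 0.107% to 0.158%. Motor neuron transcripts were present in every library, with all 8 fixed markers detected, and Chat, which makes acetylcholine, was at 3.03 to 8.44 FPKM (a count scaled to the gene's exonic length and the library total). Summed over the 8 markers the level was 73.4 to 239 FPKM in sham, 88.1 to 204 in untrained and 153 to 201 in SBES libraries, lowest in sham 1 and untrained 1. Oligodendrocyte markers summed to 5227 to 10189.9 FPKM and astrocyte markers to 2658 to 4412 FPKM, so the libraries also hold RNA of glia. Fewer cells of a type and less RNA per cell cannot be told apart in such samples. The first-numbered libraries of all groups stood apart, with 4774 to 16069 CPM (a count scaled to the library total, not to length) of the nuclear noncoding RNA Malat1 against 514 to 1617 in the others. The column names identify the sham libraries and SBES at 15 and 20 Hz. Those of the untrained libraries and of SBES at 10 Hz could be assigned only as the groups left over, and their values rest on that assignment.

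The channel genes themselves ran high in the first-numbered libraries. Relative to each gene's mean over the 9 libraries, the median of the 47 tested genes was 0.34 on the log2 scale in sham 1, 0.29 in untrained 1 and 0.37 in SBES 1, and between -0.29 and -0.01 in the other 6 libraries. Within sham, 36 of the 47 (76.6%) had their highest scaled level in library 1, against 42.4% of all genes tested. In untrained and SBES the figures were 29 (61.7%) and 28 (59.6%), against 38.9% and 39.8% of all genes. With scaling by library totals alone, library 1 was the highest for 18, 29 and 18 of the 47 in sham, untrained and SBES, against 16.4%, 33.0% and 18.7% of all genes. The exonic length of the tested channel genes had a median of 8720 bases, against 4072 over all genes tested. Differences between groups are therefore given with the value of each library.

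**Figure D1:**
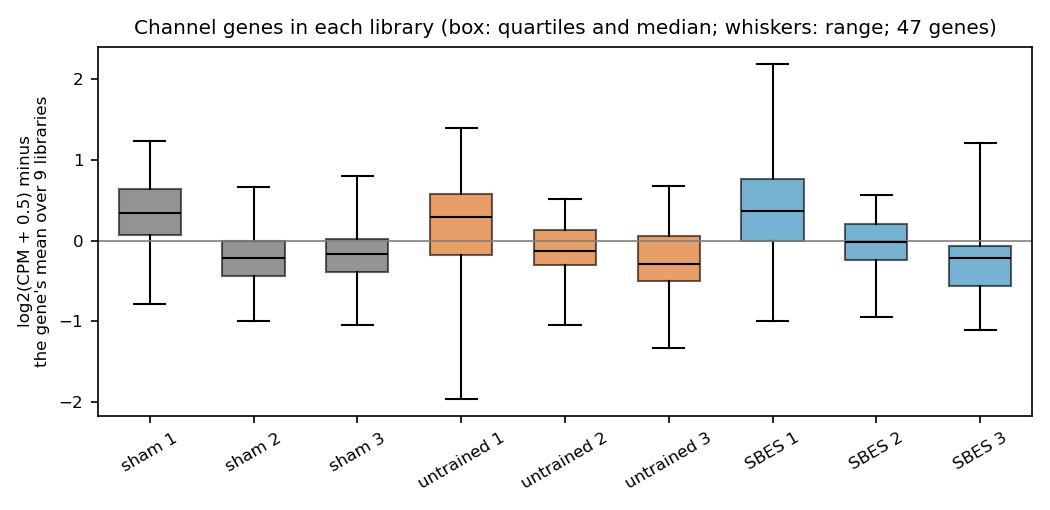
Each box holds the 47 tested channel genes in 1 library, as log2(CPM + 0.5) minus the gene's mean over 9 libraries (vertical axis, log2 units); boxes show quartiles and median, whiskers the range, colours the groups. The medians of sham 1, untrained 1 and SBES 1, at 0.34, 0.29 and 0.37, lie above those of the other 6 libraries.

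Across the 3 comparisons 1 channel gene, Trpv4, passed the test over all genes, as higher in SBES against sham. Trpv4 entered that test only through the injured libraries, where it was higher. The result was lost with most single libraries left out, as given below. Levels for these tests are CPM after TMM scaling, and a gene was called at an adjusted p under 0.05 with edgeR's quasi-likelihood test, Benjamini-Hochberg adjusted over the 15893 genes. Untrained against sham asks what injury did: 0 of 47 channel genes were called in either direction, as were 0% of all genes. At an unadjusted p under 0.05 there were 2 higher and 1 lower, where 2.18% and 2.27% of all genes passed, and DESeq2 called 0 of the 47, where it called 0.0755% of all genes higher and 0.0378% lower. The median log2 fold change of the 47 was 0.01, with 24 above 0, against -0.01 and 49.1% above 0 over all genes tested. The libraries did not overlap for 3 channel genes that were higher (Trpv4, Cacna1h and Trpm6) and 1 that was lower (Hcn3), where 4.63% and 5.13% of all genes did so.

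SBES against untrained asks what stimulation added after injury. Again 0 of 47 channel genes were called in either direction, with 0% of all genes called; 2 were higher and 0 lower at an unadjusted p under 0.05, where 3.7% and 1.67% of all genes passed. DESeq2 called 0 of the 47, where it called 0.145% of all genes higher and 0.044% lower. The median was 0.07 with 27 of 47 above 0, against 0.02 and 51.7% over all genes; it was -0.22 with a covariate for pan-neuronal markers and -0.12 without SBES 1. The libraries did not overlap for 1 higher channel gene, Scn4b, and for 0 lower ones, where 5.66% and 4.77% of all genes did so. In FPKM the libraries of Scn4b overlapped.

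SBES against sham sets stimulated injured mice beside uninjured ones. Of the 47 channel genes 1 was called higher and 0 lower, where 0.271% and 0.0755% of all genes were called. DESeq2 called the same gene, Trpv4, higher and none of the 47 lower, at 1.39% and 0.497% of all genes. At an unadjusted p under 0.05, 2 were higher and 2 lower, where 5.7% and 3.61% of all genes passed. The median was 0.05 with 26 of 47 above 0, against -0.0018 and 49.8% over all genes, and the libraries did not overlap for 2 higher (Trpv4 and Cacna1h) and 3 lower (Hcn3, Trpc7 and Trpm8) channel genes, where 7.1% and 6.73% of all genes did so. In FPKM the libraries of Trpc7 overlapped, and those of Trpm8 met at 0.15. This comparison shares its sham libraries with untrained against sham, and its SBES libraries with SBES against untrained, and none of the 3 is independent evidence for another. For the other 46 genes no difference passed in any comparison, which with 3 libraries a group does not show that they did not differ.

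**Figure D2:**
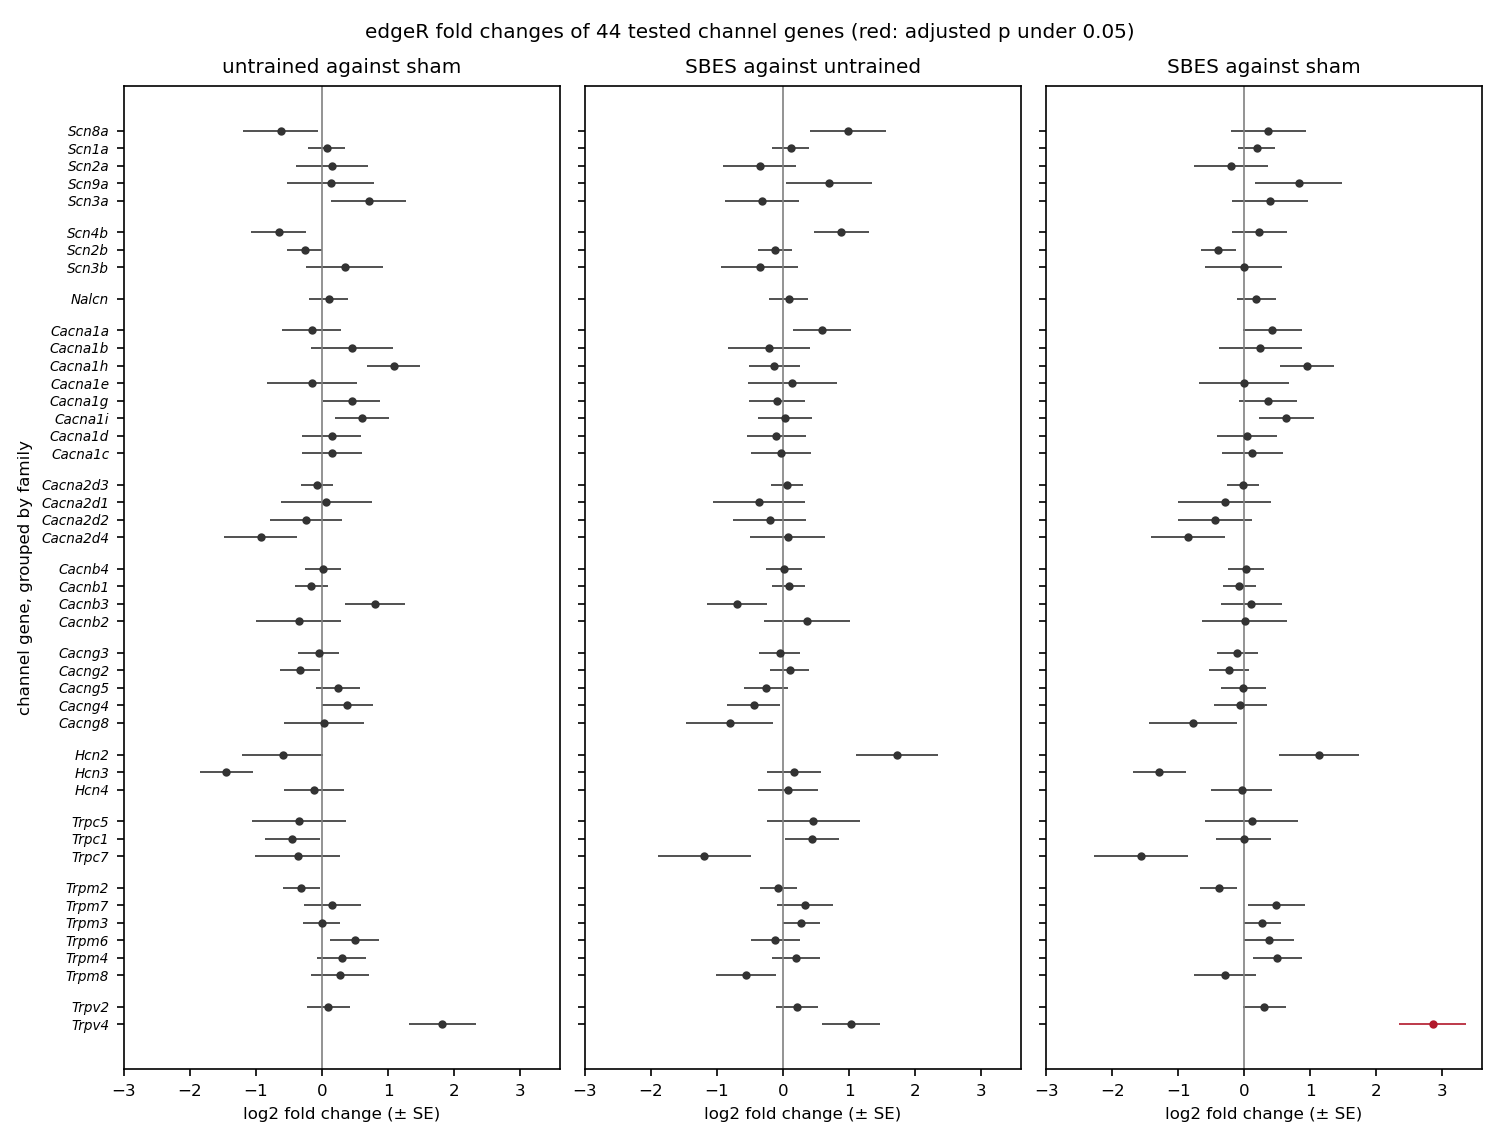
Log2 fold change (horizontal axis, bars ± SE from edgeR) of 44 tested channel genes, grouped by family, in the 3 comparisons. Trpv4 in SBES against sham, at 2.86, is the 1 gene in red, with an adjusted p under 0.05.

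Among the pore-forming sodium channel subunits, Scn8a and Scn1a stood far above the others. Scn8a (ENSMUSG00000023033, chr15:100869858-101045938 of mm10, plus strand), concentrated at the axon initial segment and the nodes of Ranvier, was at 14.90, 5.39 and 8.77 FPKM (sham 1 to 3), 11.77, 6.61 and 5.39 (untrained 1 to 3) and 20.41, 8.51 and 8.77 (SBES 1 to 3). Scn1a, an alpha subunit of many fast-firing neurons, was at 7.75, 9.64 and 8.43 FPKM (sham 1 to 3), 13.79, 9.79 and 7.75 (untrained 1 to 3) and 10.31, 10.29 and 8.27 (SBES 1 to 3). Their means over the 9 libraries, 10.1 and 9.56 FPKM, are the highest of the alpha subunits, and the ranges of the 2 genes overlap. Scn2a, typical of unmyelinated and immature axons, followed at 0.26 to 1.48 FPKM, with the 9 values 0.79, 0.61 and 0.46 FPKM (sham 1 to 3), 1.48, 0.58 and 0.4 (untrained 1 to 3) and 0.68, 0.7 and 0.26 (SBES 1 to 3). Scn9a (0.15 to 0.68) and Scn3a (0.08 to 0.41 FPKM), which are best known from sensory and embryonic neurons, were lower and neighbours in this order overlapped. Scn7a, an atypical glial sodium channel, and the skeletal muscle and nociceptor subunits Scn4a and Scn11a did not reach the count filter, with 36, 4 and 7 counts over all 9 libraries, and Scn10a had 0.

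Scn8a varied widely within each group, and its groups overlapped in all comparisons. Scaled to CPM it was at 323, 74.1 and 133 CPM (sham 1 to 3), 177, 90.01 and 77.03 (untrained 1 to 3) and 424, 122 and 136 (SBES 1 to 3), so that SBES 1 and sham 1 were highest and sham 2 lowest. The log2 fold change was -0.63 (SE 0.57) in untrained against sham, 0.99 (SE 0.57) for SBES against untrained and 0.36 (SE 0.57) for SBES against sham, with edgeR adjusted p of 0.9997, 0.9801 and 0.911. Single libraries set these values. In untrained against sham the value became 0.18 when sham 1 was left out, -1.04 when untrained 1 was, and -0.99 when sham 2 was. In SBES against untrained it became 0.18 when SBES 1 was left out. With the mean log2 level of 13 pan-neuronal markers as a covariate, untrained against sham was 0.54 and SBES against untrained 0.02. SBES against sham was -0.43 without SBES 1, -0.00545 without sham 2 and 1.15 without sham 1.

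The promoter windows of the channels of persistent inward currents and of the called gene Trpv4 are shown to set the start regions of these 3 genes side by side. They are RefSeq windows of GRCm38.p6, the assembly called mm10, from 250 bases before to 50 after a start site, 5′ to 3′ on the gene's strand. Capitals mark matches, on either strand, to the GC box GGGCGG, the TATA box TATAAA, the cAMP response element TGACGTCA and the AP-1 site TGANTCA. The windows are chr15:100870395-100870694 (plus strand) for Scn8a, chr14:30491107-30491406 (minus) for Cacna1d and chr5:114658372-114658671 (minus) for Trpv4. Scn8a and Cacna1d each have a second window in that table, whose letters are not shown.
Scn8a: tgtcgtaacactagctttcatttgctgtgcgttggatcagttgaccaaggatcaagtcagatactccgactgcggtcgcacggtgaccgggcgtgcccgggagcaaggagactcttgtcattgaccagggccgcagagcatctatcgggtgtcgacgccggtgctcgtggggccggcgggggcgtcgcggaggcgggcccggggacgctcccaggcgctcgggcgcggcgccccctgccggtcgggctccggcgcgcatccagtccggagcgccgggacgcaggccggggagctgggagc
Cacna1d: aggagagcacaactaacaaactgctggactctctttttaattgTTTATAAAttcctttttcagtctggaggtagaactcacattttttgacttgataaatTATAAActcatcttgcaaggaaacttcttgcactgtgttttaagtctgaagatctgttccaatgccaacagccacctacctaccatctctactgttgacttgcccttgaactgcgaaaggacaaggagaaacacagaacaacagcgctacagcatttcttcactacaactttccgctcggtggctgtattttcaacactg
Trpv4: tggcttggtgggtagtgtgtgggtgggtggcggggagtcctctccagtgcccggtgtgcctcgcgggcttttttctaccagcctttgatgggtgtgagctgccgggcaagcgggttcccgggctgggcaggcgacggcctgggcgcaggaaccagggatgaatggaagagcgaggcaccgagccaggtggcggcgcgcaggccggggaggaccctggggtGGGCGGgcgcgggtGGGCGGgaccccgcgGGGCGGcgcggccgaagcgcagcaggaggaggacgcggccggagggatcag
The Trpv4 start site is that of the deposited gene model, while those of Scn8a and Cacna1d lie 787 and 299 bases inside theirs. The Scn8a window held none of the 4 motifs at a GC content of 70.0%. The Cacna1d window, at 40.3% GC, held 3 matches to TATAAA, 2 of which overlap on opposite strands, and the Trpv4 window, at 73.0% GC, held 3 GC boxes. The second Cacna1d window, chr14:30353437-30353736, differs from the first, with 6 GC boxes, no TATAAA and 87.3% GC, and the second Scn8a window, chr15:100936021-100936320, held none of the motifs at 53.3% GC. Of the 66 channel genes 52 had at least 1 window, 67 in all, of which 32.8% held a GC box, 10.4% TATAAA, 2.99% an AP-1 site and 0% a cAMP response element, against 35.7%, 13.6%, 7.81% and 1.79% of all 32851 windows. A match is a description of the letters and not a site of binding.

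The auxiliary beta subunits of sodium channels, which anchor the channels and shape their gating, included Scn4b and Scn2b, which had high levels among the channel genes. Scn4b, the subunit known for promoting resurgent sodium current, was at 19.99, 19.57 and 31.82 FPKM (sham 1 to 3), 5.66, 27.46 and 20.66 (untrained 1 to 3) and 23.31, 34.71 and 26.47 (SBES 1 to 3), and Scn2b, which is bound to the alpha subunit by a disulfide bond, at 4.74, 8.85 and 7.12 FPKM (sham 1 to 3), 4.89, 6.5 and 8.09 (untrained 1 to 3) and 3.05, 7.86 and 5.01 (SBES 1 to 3). Scn3b lay between 0.40 and 2.49 FPKM, highest in untrained 1.

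After TMM scaling Scn4b was the 1 channel gene for which SBES and untrained libraries did not overlap. In FPKM they did overlap, with untrained 2 at 27.46 and SBES 1 at 23.31. In CPM it was at 137, 84.98 and 153 CPM (sham 1 to 3), 26.8, 118 and 93.3 (untrained 1 to 3) and 153, 157 and 129.7 (SBES 1 to 3), lowest in untrained 1. The means were 125 ± 35.5, 79.4 ± 47.2 and 147 ± 14.7 CPM (SD, n = 3 each). The log2 fold change was 0.88 (SE 0.42) in SBES against untrained and -0.65 (SE 0.42) in untrained against sham, and neither passed edgeR (adjusted p = 0.937 and 0.9997). Without untrained 1 these were 0.44 and -0.21, without untrained 2 the first was 1.29, and the second was -0.87 without sham 2. Motor neuron markers summed to 73.4, 239 and 238 FPKM (sham 1 to 3), 88.1, 184 and 204 (untrained 1 to 3) and 153, 160 and 201 (SBES 1 to 3). In FPKM, Scn4b was at 19.99 in sham 1, where this sum was lowest, and 19.57 in sham 2, where it was highest. Scn4b was lowest, at 5.66 FPKM, in untrained 1, where the sum was 88.1 FPKM. The part of motor neuron RNA in the Scn4b values was not tested. Scn2b was at 30.4, 35.9 and 31.9 CPM (sham 1 to 3), 21.7, 26.1 and 34.1 (untrained 1 to 3) and 18.7, 33.2 and 22.9 (SBES 1 to 3), with a log2 fold change of -0.39 (SE 0.26) in SBES against sham (edgeR adjusted p = 0.718) and overlapping groups. It was -0.20 without SBES 1 and -0.65 without SBES 2.

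Nalcn, the leak channel that sets a steady inward sodium current at rest, lay in a narrow range, 0.33 to 0.52 FPKM. It was at 0.33, 0.41 and 0.38 FPKM (sham 1 to 3), 0.51, 0.51 and 0.38 (untrained 1 to 3) and 0.41, 0.52 and 0.33 (SBES 1 to 3). Its log2 fold changes were 0.10, 0.08 and 0.18 in the 3 comparisons, with SE of 0.29, 0.29 and 0.29.

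The pore-forming calcium channel subunits were low per length, none above 0.65 FPKM in any library. Cacna1a, the P/Q-type subunit of motor nerve terminals, was highest on average at 0.41, 0.27 and 0.32 FPKM (sham 1 to 3), 0.45, 0.36 and 0.27 (untrained 1 to 3) and 0.62, 0.37 and 0.34 (SBES 1 to 3). Cacna1b, the N-type subunit, was at 0.35, 0.17 and 0.23 FPKM (sham 1 to 3), 0.65, 0.37 and 0.23 (untrained 1 to 3) and 0.51, 0.22 and 0.15 (SBES 1 to 3). The R-type Cacna1e (0.10 to 0.48 FPKM) and the T-type, low-voltage-activated Cacna1g (0.13 to 0.31 FPKM) were in the same range, and neighbours in the order overlapped. The L-type subunits Cacna1d and Cacna1c came last of the 8 tested alpha1 genes, at means of 0.113 and 0.0867 FPKM, and the retinal Cacna1f and skeletal muscle Cacna1s did not reach the filter, with 21 and 3 counts in all.

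Cacna1d (ENSMUSG00000015968, chr14:30039939-30491455, minus strand), the L-type subunit set beside Scn8a, was read from 15 to 39 counts per library. It was at 2.72, 1.33 and 1.04 CPM (sham 1 to 3), 2.05, 2.17 and 1.27 (untrained 1 to 3) and 1.67, 2.08 and 1.36 (SBES 1 to 3). No group stood apart, with means of 1.697 ± 0.901, 1.83 ± 0.491 and 1.704 ± 0.361 CPM (SD, n = 3 each), and log2 fold changes of 0.15 (SE 0.45), -0.10 (SE 0.45) and 0.05 (SE 0.45) in the 3 comparisons, in the order given. Per length it ranked 48 of the 66 genes, while Scn8a ranked 3. All 3 directions turned with single libraries left out: untrained against sham was -0.12 without sham 3, SBES against untrained was 0.0417 without untrained 2 and 0.0443 without SBES 3, and SBES against sham was -0.0955 without sham 2, -0.22 without sham 3 and -0.13 without SBES 2. At this depth no difference was detectable. Exons of Cacna1d and of Chdh on the opposite strand share 589 bases, and Chdh had 5 to 18 counts per library, so reads of the 2 could not be told apart there without strand.

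Cacna1h, a T-type subunit, had the smallest p of the alpha1 genes in both comparisons with sham. It was at 1.74, 1.46 and 1.09 CPM (sham 1 to 3), 1.92, 3.23 and 3.86 (untrained 1 to 3) and 2.67, 1.94 and 3.59 (SBES 1 to 3), and each injured library lay above each sham library. The means were 1.43 ± 0.327 in sham, 3.002 ± 0.991 in untrained and 2.73 ± 0.824 CPM in SBES (SD, n = 3 each). Its log2 fold change was 1.09 (SE 0.40) in untrained against sham and 0.95 (SE 0.41) in SBES against sham, and neither passed edgeR (adjusted p = 0.9997 and 0.499). Both values rest on the same sham libraries, with 16 to 23 counts there. Cacna1i, another T-type subunit, was at 1.09, 0.952 and 1.64 CPM (sham 1 to 3), 2.25, 1.56 and 1.87 (untrained 1 to 3) and 2.67, 1.39 and 1.79 (SBES 1 to 3), with 0.61 (SE 0.41) and 0.63 (SE 0.42) in the same comparisons and overlapping groups; the second was 0.39 without SBES 1. Of the 8 tested alpha1 genes 6 were above 0 in untrained against sham (median 0.30) and 7 in SBES against sham (0.30), where 49.1% and 49.8% of all genes were. Other small families leaned either way. Sodium alpha genes had 4 of 5 above 0 in both comparisons. HCN and TRPC genes each had 0 of 4 above 0 in untrained against sham. In SBES against sham alpha2delta had 0 of 4 and gamma 0 of 5.

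The accessory calcium channel subunits, of which alpha2delta and beta traffic the pore to the membrane, were in part higher per length than the pores. Of the alpha2delta, beta and gamma genes 7 had a mean above 1 FPKM, and none of the alpha1 genes did. Cacna2d3 led the alpha2delta subunits at 2.17, 2.86 and 2.28 FPKM (sham 1 to 3), 2.98, 2.59 and 2.43 (untrained 1 to 3) and 2.43, 2.44 and 2.18 (SBES 1 to 3). Cacna2d1, the target of gabapentin, was at 0.48, 0.19 and 0.26 FPKM (sham 1 to 3), 0.73, 0.36 and 0.1 (untrained 1 to 3) and 0.25, 0.46 and 0.12 (SBES 1 to 3), and Cacna2d2 at 0.31, 0.17 and 0.25 FPKM (sham 1 to 3), 0.35, 0.24 and 0.15 (untrained 1 to 3) and 0.27, 0.17 and 0.1 (SBES 1 to 3). Both were lowest in untrained 3 or SBES 3 and highest in untrained 1. Cacna2d4 was read from 2 to 37 counts, at 0.9805, 1.46 and 2.02 CPM (sham 1 to 3), 0.859, 0.501 and 1.03 (untrained 1 to 3) and 0.223, 1.18 and 0.989 (SBES 1 to 3), with log2 fold changes of -0.92 (SE 0.55) and -0.86 (SE 0.56) against sham in untrained and SBES, overlapping groups and edgeR adjusted p of 0.9997 and 0.709. The first was -1.43 with the pan-neuronal covariate, and the second -0.46 without SBES 1.

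Beta subunits bind the intracellular loop of the alpha1 pore. Cacnb4 was at 2.98, 3.4 and 2.59 FPKM (sham 1 to 3), 4.18, 3.66 and 2.76 (untrained 1 to 3) and 3.1, 3.24 and 2.76 (SBES 1 to 3), and Cacnb1 at 2.22, 2.88 and 2.76 FPKM (sham 1 to 3), 2.1, 3.06 and 2.97 (untrained 1 to 3) and 2.04, 3.42 and 2.04 (SBES 1 to 3). Cacnb4 shares 16.0% of its exonic bases with a noncoding transcript on the opposite strand, A430018G15Rik, which had 15 to 105 counts per library. Cacnb3 was at 6.43, 6.22 and 3.76 CPM (sham 1 to 3), 17.3, 4.29 and 7.06 (untrained 1 to 3) and 6.02, 7.28 and 4.27 (SBES 1 to 3), highest in untrained 1. Its log2 fold change of 0.81 (SE 0.46) in untrained against sham and -0.70 (SE 0.46) in SBES against untrained did not pass (edgeR adjusted p = 0.9997 and 0.993) and became 0.10 and 0.02 without untrained 1. Cacnb2 was lower, at 0.15 to 0.51 FPKM.

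Several gamma subunits are better known as partners that bring AMPA receptors to synapses. Cacng3 was at 4.81, 5.98 and 4.34 FPKM (sham 1 to 3), 8.03, 3.85 and 4.94 (untrained 1 to 3) and 3.38, 6.38 and 4.69 (SBES 1 to 3), and Cacng2, the stargazin gene, at 4.12, 3.2 and 5.05 FPKM (sham 1 to 3), 2.9, 5.07 and 3.8 (untrained 1 to 3) and 3.55, 3.26 and 3.79 (SBES 1 to 3). Cacng5 was at 1.24, 1.61 and 0.8 FPKM (sham 1 to 3), 1.9, 1.45 and 1.65 (untrained 1 to 3) and 0.95, 1.63 and 1.08 (SBES 1 to 3). These were the 3 highest of the 8 gamma genes, and their groups overlapped in all comparisons. Cacng4 lay between 0.53 and 1.44 FPKM. Cacng8, with 2 to 15 counts, was at 0.436, 0.698 and 0.654 CPM (sham 1 to 3), 0.727, 0.835 and 0.302 (untrained 1 to 3) and 0.669, 0.347 and 0.124 (SBES 1 to 3), with a log2 fold change of -0.81 (SE 0.65) in SBES against untrained that was -1.40 without SBES 1, -0.34 without SBES 3 and -0.52 without untrained 2. Cacng7 did not reach the filter, at 68 counts in all, and Cacng1 and Cacng6 had 6 counts each, those of Cacng1 in the untrained libraries (1, 3 and 2) and those of Cacng6 in SBES 2 and 3 (2 and 4).

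Among the HCN channels Hcn2 had the highest level and Hcn3 the smallest p against sham. Hcn2 (ENSMUSG00000020331, chr10:79716634-79736108, plus strand) was the highest HCN gene per length, at 3.94, 1.87 and 3.56 FPKM (sham 1 to 3), 1.74, 3.27 and 2.64 (untrained 1 to 3) and 12.15, 2.44 and 4.78 (SBES 1 to 3). Scaled to CPM, Hcn2 was at 17.3, 5.204 and 10.96 CPM (sham 1 to 3), 5.29, 9.02 and 7.66 (untrained 1 to 3) and 51.1, 7.07 and 15.03 (SBES 1 to 3), so the SBES mean of 24.4 ± 23.5 CPM (SD, n = 3) was led by SBES 1, the library stimulated at 10 Hz. The log2 fold change was 1.72 (SE 0.62) for SBES against untrained and 1.13 (SE 0.61) against sham, with overlapping groups and edgeR adjusted p of 0.896 and 0.627. Without SBES 1 these were 0.59 and 0.03. With the pan-neuronal covariate the first was 0.50. Malat1 and mitochondrially encoded genes, at 4774 CPM and 18.6% of counts, were also high in SBES 1, and their part in the Hcn2 value was not tested. With no low-count filter both comparisons called Hcn2 (edgeR adjusted p = 0.000147 and 0.0264).

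Hcn3 (ENSMUSG00000028051, chr3:89146074-89160196, minus strand), a slowly activating HCN channel, was lower in all 6 injured libraries than in each sham library. It was at 4.47, 2.41 and 2.29 CPM (sham 1 to 3), 0.925, 1.22 and 1.15 (untrained 1 to 3) and 1.23, 1.11 and 1.36 (SBES 1 to 3), from 38 to 42 counts in sham and 11 to 22 in the injured libraries. The means were 3.06 ± 1.22 CPM in sham, 1.099 ± 0.155 in untrained and 1.23 ± 0.126 in SBES (SD, n = 3 each), and SBES against untrained stood at 0.16 (SE 0.41). The log2 fold change was -1.45 (SE 0.40) in untrained against sham, the smallest p of the 47 channel genes in that comparison (0.00331 unadjusted), and -1.28 (SE 0.40) in SBES against sham (0.00748 unadjusted). Neither passed the adjustment over all genes (edgeR adjusted p = 0.927 and 0.259), and both rest on the same sham libraries. Hcn3 shares 17.1% of its exonic bases with Pklr on the opposite strand, and Pklr had 2 counts in sham 2 and 0 in the other libraries. Hcn4, the pacemaker channel of the heart, lay between 0.12 and 0.31 FPKM.

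Trpv4 (ENSMUSG00000014158, chr5:114622152-114658421, minus strand), a cation channel opened by osmotic swelling, stretch and warmth whose start region with 3 GC boxes is printed above, was the channel gene called. It was at 0.436, 0.317 and 0.273 CPM (sham 1 to 3), 1.39, 1.06 and 1.15 (untrained 1 to 3) and 2.897, 1.32 and 3.15 (SBES 1 to 3). Every injured library lay above every sham library, and SBES 1 and 3 also lay above the untrained ones, with SBES 2 inside their range. The means were 0.342 ± 0.0843 CPM in sham, 1.197 ± 0.171 in untrained and 2.46 ± 0.994 in SBES (SD, n = 3 each). In SBES against sham Trpv4 rose by a log2 fold change of 2.86 (SE 0.51), with an edgeR adjusted p of 0.0399 and a DESeq2 adjusted p of 0.000533. In untrained against sham it stood at 1.83 (SE 0.51) (unadjusted p = 0.00367, edgeR adjusted p = 0.927), and in SBES against untrained at 1.03 (SE 0.44) (0.0364 and 0.914), and neither passed.

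The level of Trpv4 was low, read from 4, 5 and 5 counts in sham, 21, 19 and 19 in untrained and 26, 19 and 51 in SBES libraries. The sham counts lay under the filter's minimum count of 10. Trpv4 therefore entered the test only through the injured libraries, where it was higher. The edgeR call in SBES against sham was lost without sham 1 (adjusted p = 0.0637), sham 2 (0.191), sham 3 (0.258), SBES 1 (0.0576) or SBES 3 (0.159), at log2 fold changes between 2.61 and 3.04, and held without SBES 2 (0.0293). It was also lost when the 6 libraries were fitted alone (0.0662) and with limma on log2(FPKM + 1) (0.0651), and it held with the 3 first-numbered libraries left out (0.02501). Markers of other cells differed between the libraries too. The 7 microglia markers, all detected in every library, summed to 222 to 359 FPKM in sham and 355 to 496 in untrained libraries. In SBES 1 to 3 they summed to 210.5, 661 and 929.6 FPKM. Of this C1qa alone was 127, 470 and 698 FPKM, while P2ry12 was lower in SBES (3.00 to 4.29 FPKM) than in sham (5.20 to 6.95). The 6 endothelium markers, also all detected, summed to 116 to 315, 245 to 413 and 229 to 461 FPKM, and the 7 astrocyte markers to 2789 to 3821, 3112 to 4412 and 2658 to 3328 FPKM. Aldoc made up most of the astrocyte sum, at 2162 to 3380 FPKM. Gfap was at 453 to 533 FPKM in sham, 286 to 958 in untrained and 294, 693 and 1055 in SBES 1 to 3. The microglia and astrocyte sums were the lowest of the 9 libraries in SBES 1. In FPKM, Trpv4 was at 0.54, 0.36 and 0.79 in SBES 1 to 3. The part of these cells in the Trpv4 values was not tested.

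**Figure D3:**
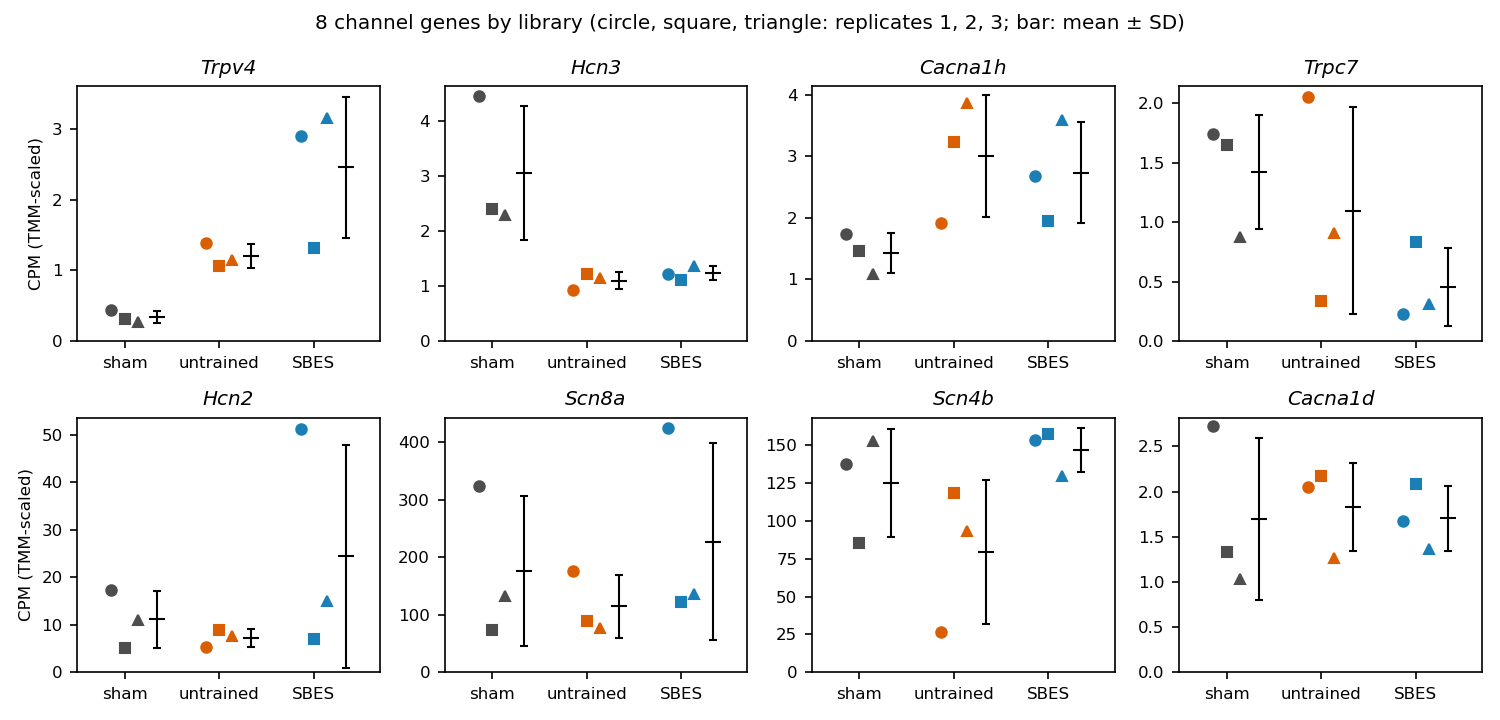
CPM after TMM scaling (vertical axis) of 8 channel genes by group; points are libraries and bars the mean ± SD of 3. For Trpv4 and Cacna1h all injured libraries lie above sham, for Hcn3 all lie below, and Hcn2 and Scn8a are highest in SBES 1.

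The other vanilloid channels were not called in any comparison. Trpv2, which is found in neurons and macrophages, was the highest TRP gene per length at 1.16, 3.72 and 3.25 FPKM (sham 1 to 3), 2.62, 2.37 and 4.47 (untrained 1 to 3) and 2.34, 3.68 and 3.55 (SBES 1 to 3). Trpv6, an epithelial calcium channel, did not reach the count filter and was at 0.12, 0 and 0.07 FPKM (sham 1 to 3), 0.39, 0.13 and 0.02 (untrained 1 to 3) and 0.24, 0.08 and 0.11 (SBES 1 to 3). Trpv1, the capsaicin receptor of nociceptors, had 2 counts in each sham library and 0 in the 6 injured ones, and at under 3 counts per library no fold is given. Trpv3 had 74 counts in all and Trpv5 had 0.

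Canonical TRP channels are opened through phospholipase C. Trpc5 was at 1.31, 0.71 and 0.41 FPKM (sham 1 to 3), 1.54, 0.54 and 0.27 (untrained 1 to 3) and 1.13, 1.23 and 0.4 (SBES 1 to 3). Trpc1 was at 0.46, 0.33 and 0.27 FPKM (sham 1 to 3), 0.35, 0.35 and 0.23 (untrained 1 to 3) and 0.38, 0.35 and 0.35 (SBES 1 to 3). Trpc7 was at 1.74, 1.65 and 0.872 CPM (sham 1 to 3), 2.05, 0.334 and 0.905 (untrained 1 to 3) and 0.223, 0.832 and 0.309 (SBES 1 to 3), from 2 to 31 counts. The 3 SBES libraries lay below the 3 sham libraries for Trpc7, by a narrow gap between 0.832 CPM in SBES 2 and 0.872 in sham 3. In FPKM Trpc7 overlapped, at 0.24 in SBES 2 and 0.23 in sham 3. Its log2 fold change was -1.56 (SE 0.70) for SBES against sham and -1.19 (SE 0.70) for SBES against untrained (edgeR adjusted p = 0.523 and 0.984); the second was -0.41 without untrained 1 and -1.95 without SBES 2. Trpc4 and Trpc6 did not reach the filter, with 54 and 28 counts, and Trpc2, the channel of vomeronasal sensory neurons, shares 97.5% of its exonic bases with Xntrpc on the same strand and had 0 counts, so its level is uncertain.

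Melastatin channels were all low, with the 3 highest present in every library. Trpm2, opened by oxidative stress and common in microglia, was at 0.75, 1.4 and 1.54 FPKM (sham 1 to 3), 0.85, 1.3 and 1.19 (untrained 1 to 3) and 1.0, 0.8 and 0.85 (SBES 1 to 3). Trpm7, a channel fused to a kinase, was at 0.7, 0.67 and 0.48 FPKM (sham 1 to 3), 0.93, 0.92 and 0.6 (untrained 1 to 3) and 1.23, 0.74 and 0.53 (SBES 1 to 3), and Trpm3, a steroid- and heat-sensitive channel, at 0.51, 0.65 and 0.6 FPKM (sham 1 to 3), 0.6, 0.96 and 0.49 (untrained 1 to 3) and 0.71, 0.77 and 0.61 (SBES 1 to 3). Their groups overlapped in all comparisons. Trpm6, a magnesium channel, did not overlap between untrained and sham at 0.66, 0.97 and 0.64 against 0.34, 0.51 and 0.56 FPKM, with a log2 fold change of 0.49 (SE 0.37). Trpm4, a calcium-activated channel, lay between 0.17 and 0.45 FPKM. The cold sensor Trpm8 was at 0.9805, 0.762 and 0.709 CPM (sham 1 to 3), 1.12, 0.668 and 1.15 (untrained 1 to 3) and 0.669, 0.624 and 0.6802 (SBES 1 to 3), with -0.56 (SE 0.45) in SBES against untrained and 6 to 19 counts. Trpm5 and Trpm1 had 19 and 29 counts in all.

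**Figure D4:**
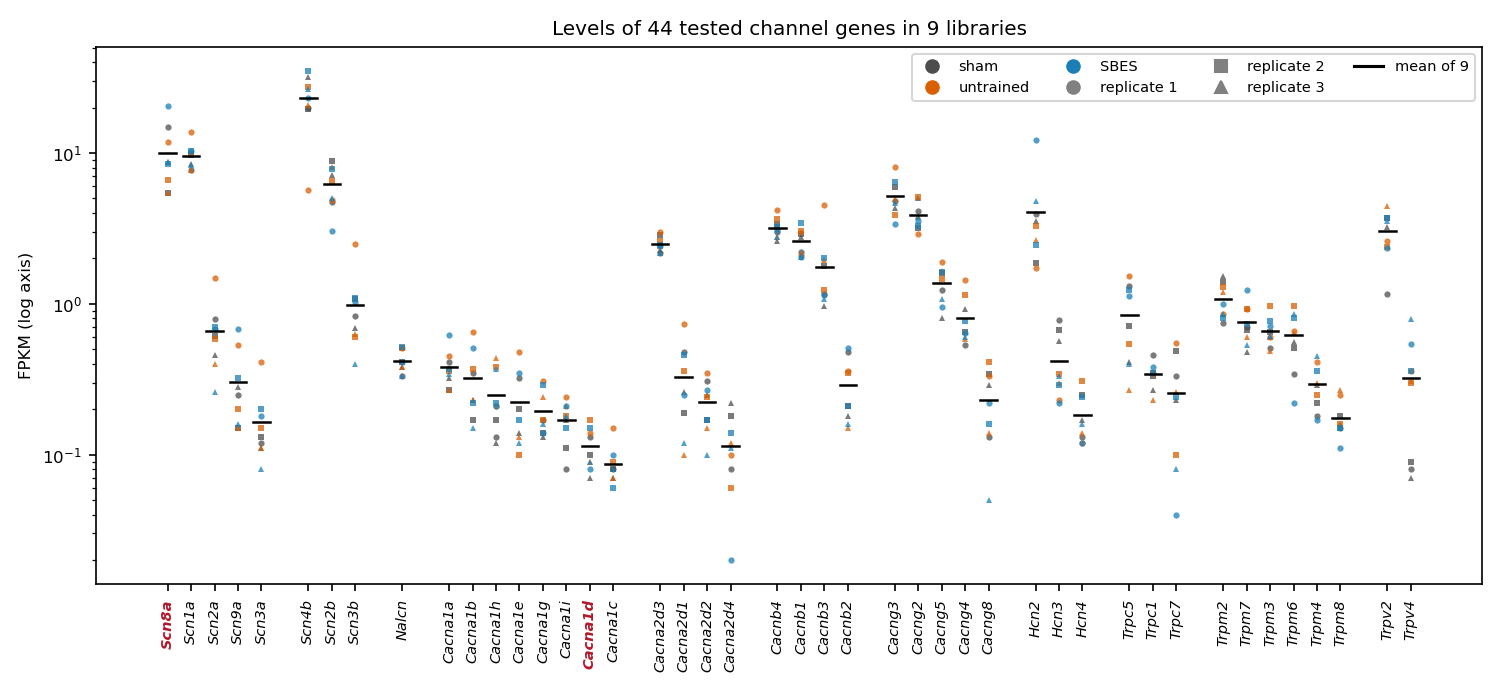
FPKM on a log axis of 44 tested channel genes, grouped by family and ordered by their mean over 9 libraries (black bar); points are libraries, coloured by group. Scn8a and Cacna1d (red names) have means of 10.1 and 0.113 FPKM.

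Shares within a family do not depend on how libraries are scaled, and 6 were compared in 3 comparisons with exact two-sided permutation tests, where 3 libraries against 3 cannot go below p = 0.1. The share of Scn8a in the summed FPKM of the 10 sodium alpha genes was 62.3%, 33.8% and 48.5% (sham 1 to 3), 41.8%, 38.01% and 38.9% (untrained 1 to 3) and 63.2%, 42.4% and 49.9% (SBES 1 to 3). All 3 SBES libraries lay above all 3 untrained ones, at 51.8% ± 10.5 against 39.6% ± 1.99 (SD, n = 3 each), a difference of 12.3 percentage points at the smallest exact p the design allows, 0.1 (0.9 adjusted over 18 tests). Sham, at 48.2% ± 14.3, overlapped both. Scn1a took most of the rest, at 32.4%, 60.4% and 46.7% (sham 1 to 3), 49.01%, 56.3% and 55.96% (untrained 1 to 3) and 31.9%, 51.3% and 47.02% (SBES 1 to 3), and its groups overlapped.

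The share of the N-type Cacna1b in Cacna1a plus Cacna1b was 46.1%, 38.6% and 41.8% (sham 1 to 3), 59.1%, 50.7% and 46% (untrained 1 to 3) and 45.1%, 37.3% and 30.6% (SBES 1 to 3). It was higher in each untrained than in each SBES library, at 51.9% ± 6.63 against 37.7% ± 7.27 (SD, n = 3 each; difference of -14.2 points, exact permutation p = 0.1, adjusted p = 0.9). Cacna1d made up 61.9%, 55.6% and 50% (sham 1 to 3), 48.3%, 65.4% and 56.2% (untrained 1 to 3) and 44.4%, 71.4% and 52.9% (SBES 1 to 3) of the 2 L-type genes, with groups that overlapped. Hcn2 made up 70.5%, 53.4% and 72.4% (sham 1 to 3), 63.3%, 67.1% and 73.1% (untrained 1 to 3) and 89.9%, 64.7% and 81.3% (SBES 1 to 3) of the HCN genes, and Trpm7 26.1%, 18.3% and 13.04% (sham 1 to 3), 25%, 19.96% and 17.05% (untrained 1 to 3) and 34.9%, 20.3% and 15.3% (SBES 1 to 3) of the TRPM genes. None of the 18 comparisons passed, and with 3 libraries a group none could.

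**Figure D5:**
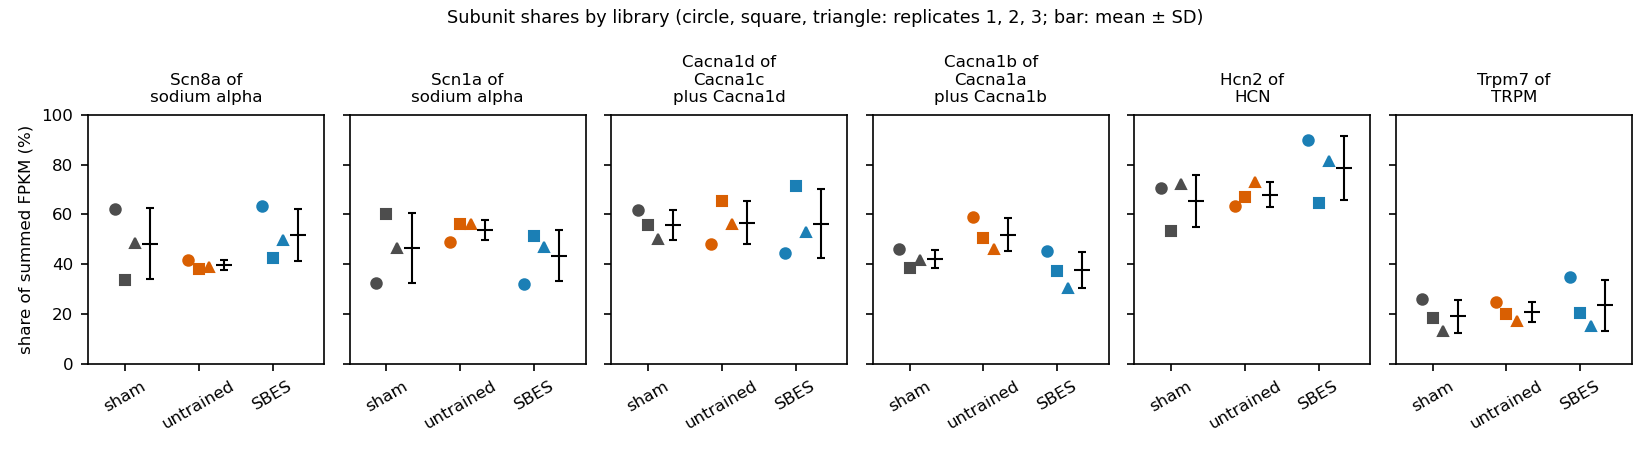
Share of the summed FPKM (vertical axis, percent) taken by 1 gene of a family, by group; points are libraries and bars the mean ± SD of 3. The Scn8a share is higher, and the Cacna1b share lower, in every SBES library than in every untrained library, at 42.4% to 63.2% against 38.0% to 41.8% and at 30.6% to 45.1% against 46.0% to 59.1%.

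Genes that anchor, modify or fill the stores of these channels were taken from a list of 42, of which 37 were tested: ankyrins and spectrin of the axon initial segment, FGF homologous factors, the NALCN complex, the HCN partner Pex5l, calmodulins, calpains, ubiquitin ligases, STIM and ORAI proteins, and ryanodine and inositol trisphosphate receptors. None of the 37 was called by edgeR in any comparison. In untrained against sham 17 of 37 were above 0 (median -0.02), for SBES against untrained 28 (0.14) and for SBES against sham 24 (0.16), where 49.1%, 51.7% and 49.8% of all genes were. Within SBES most of the 37 had their highest scaled level in SBES 1, against 39.8% of all genes tested. The partner genes were not refitted with libraries left out, so how far these counts rest on SBES 1 was not tested. Stim1, the calcium sensor of the endoplasmic reticulum that gates ORAI channels, was at 15.3, 11.9 and 10.96 CPM in sham, 12.6, 13.9 and 15.3 in untrained and 23.5, 19.6 and 23.3 in SBES libraries. The SBES libraries lay above all 6 others, with 0.66 (SE 0.22) for SBES against untrained and 0.81 (SE 0.23) for SBES against sham (edgeR adjusted p = 0.867 and 0.201; DESeq2 adjusted p = 0.498 and 0.0471). Stac2, an adaptor of L-type calcium channels, was at 12.2, 15.99 and 15.8 CPM in sham, 9.72, 12.2 and 13.5 in untrained and 20.4, 18.4 and 15.2 in SBES libraries, with 0.61 (SE 0.24) in SBES against untrained. Fgf12, a factor that binds sodium channel tails, stood at -0.36 (SE 0.24) in untrained against sham (edgeR adjusted p = 0.9997). Orai2, a pore of store-operated calcium entry, stood at -0.40 (SE 0.28) in untrained against sham (edgeR adjusted p = 0.9997). Itpr3, a calcium release channel of the endoplasmic reticulum, stood at 0.95 (SE 0.46) in SBES against sham (edgeR adjusted p = 0.567).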

How the data were processed

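The 9 libraries of mouse spinal motoneurons hold 3 of each group. Per the labels' protocols, the authors aligned paired-end reads to mm10 with Hisat2 2.0.1 and counted genes with HTSeq 0.6.1; the annotation release and strand setting are not stated in the labels, so reads of genes that overlap on opposite strands could not be separated. The deposited table holds raw counts and FPKM per gene, and the deposited FPKM equal the counts scaled to exonic length and library total within 0.006 for 100% of values. FPKM were used for levels between genes and for shares.

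Counts were tested with edgeR 4.0.16 (R 4.3.3): filterByExpr with a minimum count of 10, TMM scaling, and 1 quasi-likelihood fit of all 9 libraries with a coefficient per group, Benjamini-Hochberg adjusted over 15893 genes, which hold over 99.8% of counts. The scripts were tested on simulated counts with known changes. Of 2-fold changes 10%, 10% and 5% were called in untrained against sham, SBES against untrained and SBES against sham. Of 4-fold changes 68%, 71% and 62% were, so most 2-fold changes would be missed. Shares were compared with two-sided exact permutation tests. Alternatives were DESeq2 1.42.0, limma 3.58.1 on log2(FPKM + 1) and log2(FPKM + 0.1), other scalings and filters, a pan-neuronal covariate, a replicate block, and libraries left out. Deviations from the group mean correlated over genes at 0.144 to 0.268 between same-numbered sham and SBES libraries. Same-numbered sham and untrained libraries stood at 0.001 to 0.391, and untrained and SBES libraries at -0.168 to 0.262. Of the 9 same-numbered pairs 7 stood above 0.1. Pairs of different number ranged from -0.359 (untrained 3 and SBES 1) to 0.267 (sham 2 and untrained 3). The main fit held no term for the replicate number, and a fit with such a block is given below. The labels give no batch or shared animal.

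Genes named with each library's value were Scn8a and Cacna1d, up to 3 genes of highest mean FPKM per family, up to 4 of smallest unadjusted p per comparison and direction, and called genes. Of partner genes, the 2 of smallest p per comparison were named. Some genes of these families are not reported here by name. Members, lists and tests were chosen with earlier results of these data known. Coordinates of 64 of the 66 genes equal those of GENCODE M21.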

Additional observations from a re-analysis of the deposited data

How the results depend on the processing

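Of the 28 values of named genes, recomputed under 457 settings in all, 436 settings kept the direction and side of the threshold, 7 lost a call, 2 gained one and 12 turned the direction. The 7 lost calls are those of Trpv4 given in the report, and its log2 fold change in SBES against sham lay between 2.61 and 3.16 with single libraries left out. The count of channel genes called higher in SBES against sham, 1 as reported, was 2 with no low-count filter, 0 with a filter of at least 1 FPKM in 3 libraries (which keeps 17 channel genes and leaves out Trpv4), 0 with the 6 libraries alone, 0 with limma on log2(FPKM + 1), and 0 to 1 with single libraries left out. In SBES against untrained it was 1, Hcn2, with no low-count filter. The median log2 fold change of the channel genes in untrained against sham moved from 0.01 to 0.39 with the pan-neuronal covariate and lay between -0.14 and 0.31 with single libraries left out; in SBES against sham it lay between -0.13 and 0.36, at 0.36 without sham 1. In SBES against untrained it turned from 0.07 to -0.22 with the covariate, against -0.01 over all genes, and lay between -0.12 and 0.17 with single libraries left out. Why these values moved was not tested, beyond the genes and libraries that each setting leaves out. Scaling by library totals alone shifted the median of all genes by 0.18 in untrained against sham and -0.19 in SBES against untrained.

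With the covariate Scn8a was at 0.54 in untrained against sham and 0.02 in SBES against untrained, where Hcn2 was at 0.50. With all first-numbered libraries left out Cacnb3 was at 0.0031 in SBES against untrained. With single libraries left out, untrained against sham ranged from -1.04 to 0.18 for Scn8a and -0.12 to 0.66 for Cacna1d. In the same way SBES against untrained ranged from -1.05 to 0.0187 for Cacnb3 and -0.31 to 0.0443 for Cacna1d, and SBES against sham from -0.43 to 1.15 for Scn8a and -0.22 to 0.54 for Cacna1d.

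Among shares, the Hcn2 difference in untrained against sham was -2.33 percentage points from counts. With single libraries left out the differences that turned ranged, in untrained against sham, from -3.56 to 4.997 points for Cacna1d, -3.57 to 5.89 for Hcn2 and -1.55 to 4.99 for Trpm7. In SBES against untrained they ranged from -7.94 to 5.55 for Cacna1d and -2.84 to 6.97 for Trpm7, and in SBES against sham from -3.60 to 10.7 for Scn8a, -10.1 to 3.88 for Scn1a, -7.13 to 6.36 for Cacna1d and -1.33 to 8.48 for Trpm7.

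With the replicate number as a block, the medians of the channel genes were -0.08, 0.04 and 0.08 in untrained against sham, SBES against untrained and SBES against sham, Trpv4 kept its call in the last (edgeR adjusted p = 0.0288), and no call of a channel gene changed. Of the 9 libraries 4 correlated best with a library of their own number. Trpv4, Cacna1d, Trpc7 and Trpm8 rest on few counts, which limits their precision.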
